A study of Mus musculus with 4 samples.

Results

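Annexins and S100 proteins were followed in liver RNA of male mice through 9 genes chosen by name, Anxa2, Anxa3, Anxa5, Anxa6, Anxa7, S100a4, S100a6, S100a10 and S100a11. They were chosen with earlier results of these data known. A gene was measured by every Affymetrix probe set whose single gene symbol in the platform annotation was that gene. This gave 17 probe sets for 8 of the 9 genes, of 18193 genes named on the array. S100a11 had no such probe set, since the annotation gave 3 genes for the probe set that lists it, and it is not reported here.

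The 4 groups were LASS2-/- mice on high-fat diet (HFD), wild-type (WT) mice on HFD, LASS2-/- mice on chow and WT mice on chow, with 1 array each. LASS2 is an older name of Cers2, a synthase of very-long-chain ceramides. The HFD held 60% of calories as fat and the chow diet 10%, and both were begun at 3 weeks of age. The sources used here do not state how the allele was made, the age at sampling or whether an array held 1 mouse or a pool. With 1 array a group no value has an error between animals, and a ratio of 2 arrays has no test.

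Annexins bind acidic membrane phospholipids when calcium is present and take part in membrane repair, vesicle traffic and the anchoring of actin. S100 proteins are small calcium sensors of the EF-hand type that work as dimers and bind target proteins, annexins among them. S100a10 is an exception that no longer needs calcium, and together with Anxa2 it forms a complex that holds plasminogen and its activator at the cell surface. In adult liver many of these genes are known from bile duct, stellate and immune cells, and Anxa2 from regenerating and tumour liver.

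RefSeq promoter windows on build GRCm38.p6 matched 5 of the 8 measured genes. The 250 bases before the start are shown for Anxa2 and Anxa5, whose signals were higher on HFD, and for S100a4 and S100a6, close neighbours on chromosome 3 with only S100a5 between them in the RefSeq order of coding genes. Anxa7 was also higher on HFD, and its windows are not shown. Capitals mark matches on either strand to the AP-1 motif TGANTCA, the GC box GGGCGG and the TATA box TATAAA; no matches overlapped.
Anxa2, chr9:69453433-69453682, plus strand: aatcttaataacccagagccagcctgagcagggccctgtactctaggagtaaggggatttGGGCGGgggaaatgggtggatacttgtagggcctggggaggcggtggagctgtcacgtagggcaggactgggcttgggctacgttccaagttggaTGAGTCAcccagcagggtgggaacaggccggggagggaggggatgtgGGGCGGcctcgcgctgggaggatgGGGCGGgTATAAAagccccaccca
Anxa5, chr3:36475888-36476137, minus strand: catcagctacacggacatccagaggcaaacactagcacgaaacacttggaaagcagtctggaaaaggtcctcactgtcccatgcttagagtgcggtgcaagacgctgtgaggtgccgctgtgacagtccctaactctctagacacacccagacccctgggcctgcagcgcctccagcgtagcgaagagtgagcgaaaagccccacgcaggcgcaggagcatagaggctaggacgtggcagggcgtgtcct
S100a4, chr3:90603520-90603769, plus strand: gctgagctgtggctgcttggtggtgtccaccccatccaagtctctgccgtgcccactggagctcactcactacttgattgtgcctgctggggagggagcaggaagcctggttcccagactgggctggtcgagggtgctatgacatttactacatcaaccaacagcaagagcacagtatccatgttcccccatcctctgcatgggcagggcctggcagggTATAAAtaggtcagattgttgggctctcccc
S100a6, chr3:90612644-90612893, plus strand: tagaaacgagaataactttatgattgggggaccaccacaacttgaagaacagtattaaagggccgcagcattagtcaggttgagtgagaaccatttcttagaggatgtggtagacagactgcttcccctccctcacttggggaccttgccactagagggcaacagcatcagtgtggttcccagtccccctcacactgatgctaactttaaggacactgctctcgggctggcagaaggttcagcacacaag
Anxa2 held 1 AP-1 match, which began 95 bases before the start, 3 GC boxes and 1 TATA box, which began 17 bases before the start. S100a4 held 1 TATA box, beginning 31 bases before the start, and the windows of Anxa5 and S100a6 held none of these motifs. The Anxa7 windows held 1 and 4 GC boxes and no match to the other motifs. Among 32851 RefSeq promoter windows of the same length, 6.75% held the AP-1 motif, 32.7% the GC box and 12.4% the TATA box. A match describes the letters in the window and is not a measured site.

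Values are log2 MAS5 signals, and each gene is given by its brightest probe set. The array median, between 6.17 and 6.28, served as a floor: lower values were raised to it before ratios were taken. Mean diet and mean genotype effects came from a limma fit of both factors over the 4 arrays, in which the only error is how far the genotype effect differs between the diets (1 residual degree of freedom) and most of the standard error (SE) is borrowed from genes of like signal. A gene passed when its p, adjusted by Benjamini-Hochberg over all 12493 genes entered, was below 0.05; values near 0.05 are the least secure in this fit. All 8 measured genes entered, 7 of them above the floor on every array; S100a4 entered through the array labelled LASS2-/- HFD alone.

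The probe set for Cers2, the targeted gene, read 12.32 on the array labelled LASS2-/- HFD, 12.25 on WT HFD, 12.32 on the array labelled LASS2-/- chow and 12.46 on WT chow. It thus did not separate the arrays by label, and whether it reads the deleted part of the transcript is not known here. Genotype is therefore given below as the label. The hepatocyte markers Alb, Ttr and Apoa1, named after their values were seen, were above 15 on every array.

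Anxa2, Anxa5, Anxa7 and S100a10 rose with HFD, so that 4 of the 8 genes rose and 0 fell in the limma test of the mean diet effect, where 6.26% of all genes rose and 5.04% fell. The median log2 diet effect of the 8 genes was 0.88, and 0.72 without S100a4, against 0.02 over all genes. Leaving out S100a4 was chosen after seeing the data. The 8 genes themselves were chosen with earlier results of these data known, so setting them against all genes is no independent test. Without a trend in the moderation limma gave 0 of the 8 and 0 of all genes, with 1783 genes at an unadjusted p below 0.05. On both HFD arrays 6 of the 8 were higher than on both chow arrays, a pattern that 27.3% of all genes showed. In these whole-liver samples more cells of a type and more RNA per cell cannot be told apart.

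Anxa2, the calcium-dependent partner in the complex with S100a10, had log2 signals of 11.61 on the array labelled LASS2-/- HFD and 10.77 on WT HFD, against 9.40 on the array labelled LASS2-/- chow and 9.27 on WT chow. The HFD arrays stood apart from the chow arrays, and the chow arrays lay close together. The HFD over chow ratio was 4.63-fold under the LASS2-/- label and 2.83-fold in WT, and the mean diet effect was 1.86 ± 0.16 log2 (moderated SE, limma adjusted p = 3.08e-06). Only 1.05% of all genes had a larger mean diet effect. A further Anxa2 probe set, 1437692_x_at, read 7.73 on the array labelled LASS2-/- HFD and 6.93 on WT HFD, against 2.78 on the array labelled LASS2-/- chow and 2.80 on WT chow, so that it cleared the floor on HFD alone. The remaining one, 1437691_at, was under the floor on all 4 arrays. With the mean of the 3 probe sets the diet effect was 2.43 log2 and did not pass (limma adjusted p = 0.0754).

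S100a10, also called p11, read 13.71 on the array labelled LASS2-/- HFD and 13.46 on WT HFD, against 12.48 on the array labelled LASS2-/- chow and 12.20 on WT chow. Diet separated these arrays too, and by this probe set the genotypes differed little within a diet. HFD over chow was 2.34-fold under the LASS2-/- label and 2.40-fold in WT, with a mean effect of 1.24 ± 0.09 log2 (limma adjusted p = 5.89e-07). Probe set 1416762_at gave a smaller mean diet effect of 0.88 log2, and it replaced 1456642_x_at when probe sets ending in _x_at were left out, where S100a10 was no longer 2-fold apart in either genotype (0.77 log2 under the LASS2-/- label and 0.98 in WT). The remaining probe set, 1439348_at, had 8.03 on the array labelled LASS2-/- HFD and 8.12 on WT HFD, against 8.55 on the array labelled LASS2-/- chow and 7.40 on WT chow. Its diet ratios went in opposite directions, -0.52 log2 under the LASS2-/- label and 0.72 in WT.

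**Figure D1:**
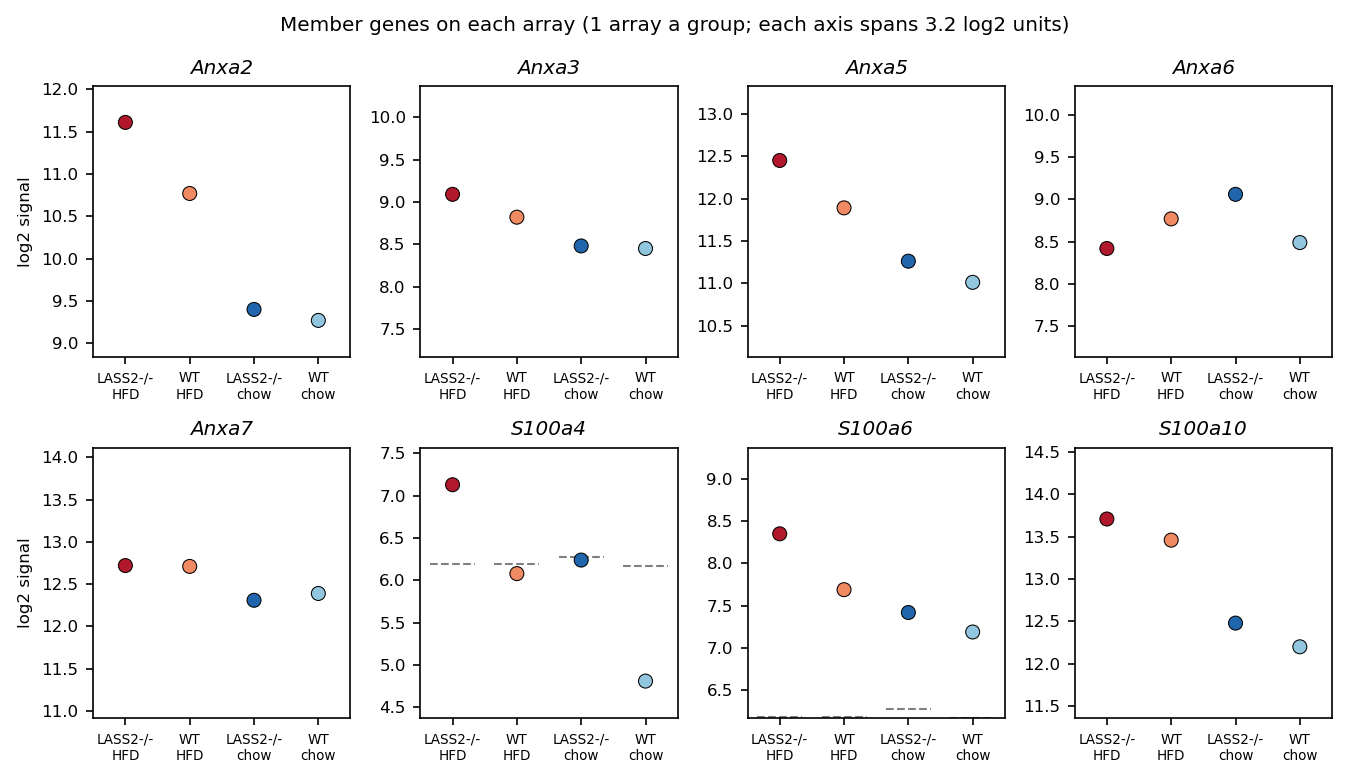
Log2 signal (vertical axis) of the 8 measured genes on each of the 4 arrays (horizontal axis), 1 point an array; dashed lines are the array medians that served as floor, drawn where they fall inside the axis. Anxa2, Anxa5 and S100a10 are high on both HFD arrays, Anxa6 is highest on the array labelled LASS2-/- chow, and S100a4 clears the floor on the array labelled LASS2-/- HFD alone.

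Anxa5, which binds phosphatidylserine exposed on membranes, had 12.45 on the array labelled LASS2-/- HFD and 11.89 on WT HFD, against 11.26 on the array labelled LASS2-/- chow and 11.01 on WT chow. The 4 arrays followed the same order as for Anxa2. HFD over chow was 2.28-fold under the LASS2-/- label and 1.84-fold in WT, and the mean effect was 1.04 ± 0.11 log2 (limma adjusted p = 2.16e-05).

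Anxa7, known as synexin and involved in membrane fusion during secretion, rose by a smaller amount. It read 12.72 on the array labelled LASS2-/- HFD and 12.71 on WT HFD, against 12.31 on the array labelled LASS2-/- chow and 12.39 on WT chow. The mean diet effect was 0.36 ± 0.09 log2 (limma adjusted p = 0.0179). Its other probe sets had mean diet effects of 0.64 and 0.15 log2, in the same direction. The mean of the 3 did not pass (0.39 log2, limma adjusted p = 0.12).

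Anxa3 and S100a6 were higher on both HFD arrays but did not pass. Anxa3, an annexin abundant in human neutrophils, read 9.09 on the array labelled LASS2-/- HFD and 8.82 on WT HFD, against 8.48 on the array labelled LASS2-/- chow and 8.45 on WT chow (mean effect 0.48 ± 0.18 log2, limma adjusted p = 0.101). S100a6, or calcyclin, read 8.35 on the array labelled LASS2-/- HFD and 7.69 on WT HFD, against 7.42 on the array labelled LASS2-/- chow and 7.19 on WT chow (mean effect 0.72 ± 0.26 log2, limma adjusted p = 0.0946). For both genes the spacing between the diets was of the same order as the spacing between the HFD arrays.

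S100a4, also called metastasin and known from fibroblasts and macrophages, lay around the floor. It read 7.13 on the array labelled LASS2-/- HFD and 6.08 on WT HFD, against 6.24 on the array labelled LASS2-/- chow and 4.81 on WT chow. Only the first of these was above its array's median, so that HFD over chow was at least 1.80-fold under the LASS2-/- label and has no value in WT. The mean effects on unfloored values, 1.08 ± 0.59 log2 for diet (limma adjusted p = 0.304) and 1.24 ± 0.59 for genotype (adjusted p = 0.506), did not pass.

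Anxa6, the largest annexin, known for its part in cholesterol traffic and endocytosis, had diet ratios of opposite sign by its brightest probe set. It read 8.42 on the array labelled LASS2-/- HFD and 8.77 on WT HFD, against 9.06 on the array labelled LASS2-/- chow and 8.49 on WT chow. The diet ratio was -0.64 log2 under the LASS2-/- label and 0.28 in WT, and the mean effect of -0.18 ± 0.21 did not pass (limma adjusted p = 0.681). Probe set 1429246_a_at read 7.49 on the array labelled LASS2-/- HFD and 7.48 on WT HFD, against 6.10 on the array labelled LASS2-/- chow and 6.54 on WT chow. It went the other way under the LASS2-/- label (at least 1.21 log2, since 6.10 is under the floor) and the same way in WT (0.94). The mean diet effects of the 4 Anxa6 probe sets, on unfloored values, were -0.18, 1.16, 0.70 and -0.11 log2, so that no direction of the mean effect holds across them. Probe set 1429247_at, with 0.70, was also under the floor on the array labelled LASS2-/- chow (6.25).

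**Figure D2:**
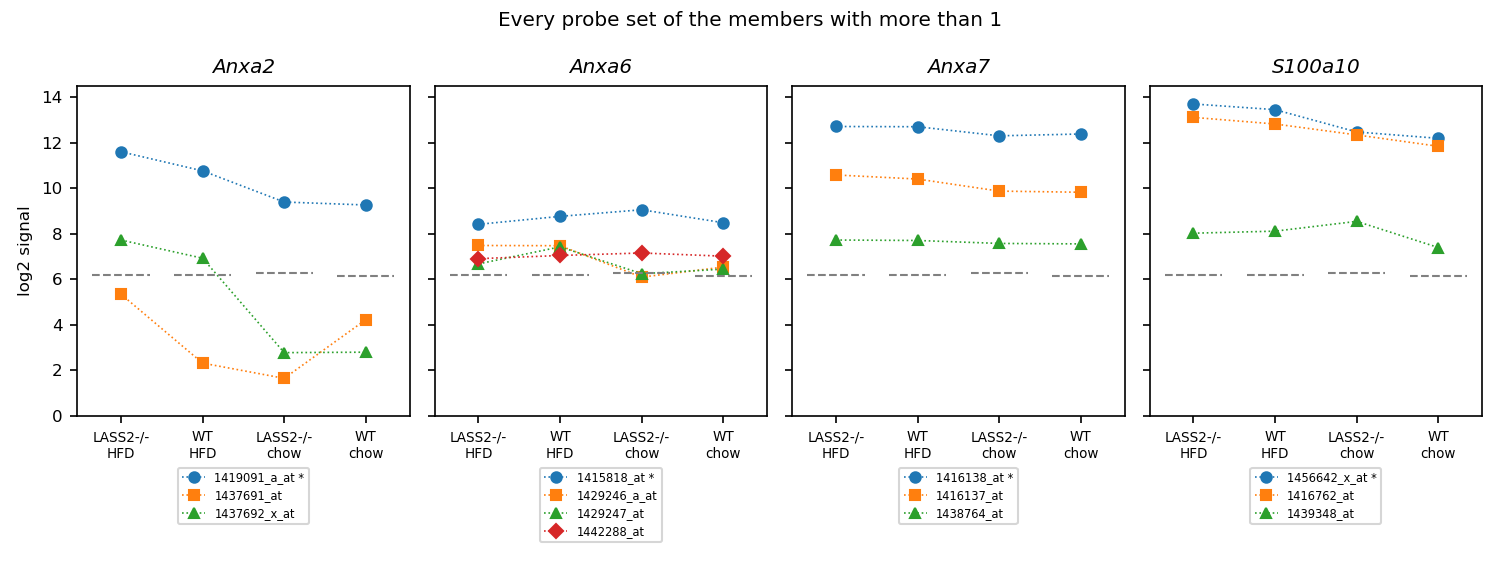
Log2 signal (vertical axis) of every probe set of Anxa2, Anxa6, Anxa7 and S100a10 on the 4 arrays (horizontal axis); the asterisk marks the probe set that stands for the gene, dashed lines are array medians, and dotted lines only join points of 1 probe set. The Anxa7 probe sets move together with diet, and those of Anxa6 cross.

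At the 2-fold mark, 3 of the 8 genes were higher on HFD under the LASS2-/- label (Anxa2, Anxa5 and S100a10), where 3.11% of all genes were. In WT 2 of the 8 were (Anxa2 and S100a10), where 2.13% of all genes were. None of the 8 was 2-fold lower on HFD in either genotype, where 1.89% of all genes were under the LASS2-/- label and 1.24% in WT.

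By genotype label, 0 of the 8 genes passed limma in either direction, where 0.56% of all genes rose and 0.352% fell. An unadjusted p below 0.05 was reached by 3 of the 8, Anxa2, Anxa5 and S100a10, and by 10.4% of all genes. The median mean genotype effect was 0.33 log2, and 0.26 without S100a4, against 0.01 over all genes. Anxa5 had 0.40 ± 0.11 log2 (limma adjusted p = 0.129), Anxa2 0.48 ± 0.16 (adjusted p = 0.243) and S100a10 0.26 ± 0.09 (adjusted p = 0.246). By the probe sets that stand for the genes none of the 8 was 2-fold apart between genotypes, where 1.47% of all genes were 2-fold higher and 0.488% lower under the label on HFD, and 1.16% higher and 0.424% lower on chow.

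On HFD, Anxa2 was 1.79-fold higher on the array labelled LASS2-/- than on WT, S100a6 was 1.58-fold higher and Anxa5 1.47-fold higher, and S100a4 was at least 1.91-fold higher. On chow the same ratios were 1.09-fold for Anxa2, 1.17-fold for S100a6 and 1.19-fold for Anxa5, and S100a4 was under the floor on both arrays. Genes with a larger ratio than Anxa2 made up 2.46% of all genes on HFD and 32.3% on chow. S100a10 had 1.18-fold on HFD and 1.21-fold on chow by its brightest probe set. Its other probe sets gave log2 genotype ratios of 0.29 on HFD and 0.50 on chow for 1416762_at, and of -0.09 on HFD and 1.15 on chow for 1439348_at, so that the similarity between the diets does not hold across them. Anxa7 had 1.01-fold on HFD and 0.948-fold on chow.

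Of the 7 genes above the floor on all arrays, 5 had the larger genotype ratio on HFD (Anxa2, Anxa3, Anxa5, Anxa7 and S100a6), where 51.2% of 10111 genes above the floor on all arrays did. With arrays scaled to equal medians or quantile-normalized, S100a10 joined them and made 6. The difference of the log2 genotype ratios, HFD minus chow, was 0.71 for Anxa2, 0.43 for S100a6, 0.31 for Anxa5, 0.23 for Anxa3, 0.09 for Anxa7, -0.04 for S100a10 and -0.92 for Anxa6. For S100a4 it turned on the floor, since without it the ratio was 1.05 log2 on HFD and 1.44 on chow. The 4 arrays leave no error with which to test this difference.

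**Figure D3:**
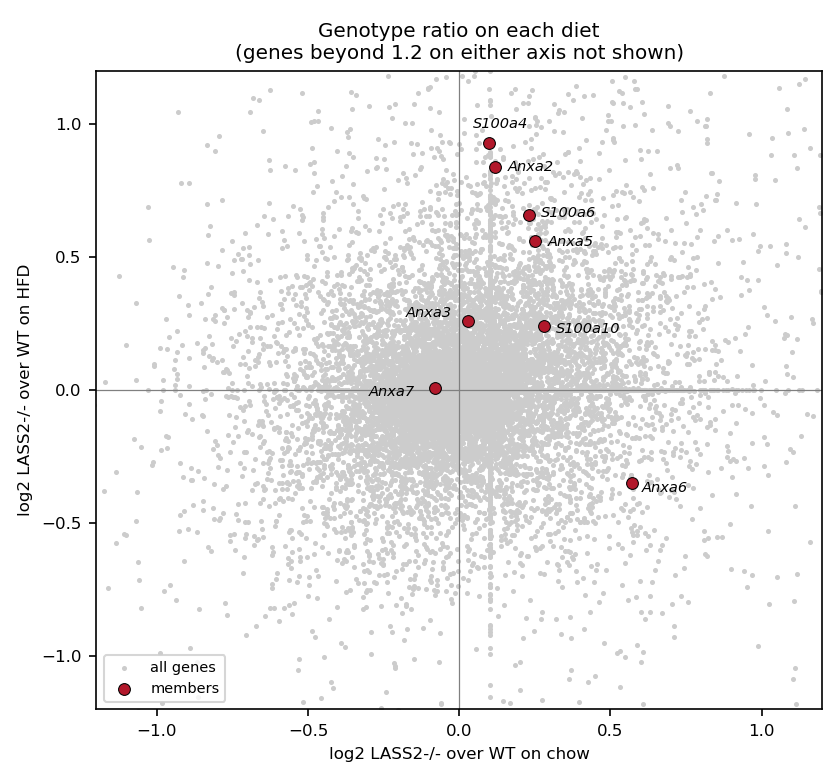
Log2 ratio of the array labelled LASS2-/- over WT on HFD (vertical axis) against the same ratio on chow (horizontal axis), 1 point a gene, with the 8 genes in red over all genes in grey. Anxa2, Anxa5 and S100a6 lie between 0.56 and 0.84 on HFD and between 0.12 and 0.25 on chow, Anxa6 lies below 0 on HFD, and the chow position of S100a4 is set by the floors.

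The same order of the 4 arrays, from WT chow through the array labelled LASS2-/- chow and WT HFD to the array labelled LASS2-/- HFD at the top, was found in Anxa2, Anxa3, Anxa5, S100a6 and S100a10. These are 5 of the 8 genes, and 6.90% of all genes showed it. With equal medians every chow genotype ratio of genes above the floor fell by about the shift in the median of all genes, which was 0.03 log2 as deposited and -0.07 after scaling. The chow ratio of Anxa3 was then -0.07 log2 and the order held in 4 genes. The steps between neighbouring arrays have no measured spread, and the chow arrays differed by only 0.03 log2 for Anxa3 and 0.12 for Anxa2.

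Genes whose centred signals over the 4 arrays lay nearest to the median pattern of the 7 genes above the floor were Krt18, a keratin of hepatocytes and bile ducts, Gyg, which primes glycogen synthesis, Bmper, Tnfsf10 and Npy. Their Euclidean distances over the 4 arrays were 0.08 to 0.15 log2. Krt18 read 12.99 on the array labelled LASS2-/- HFD and 12.50 on WT HFD, against 12.07 on the array labelled LASS2-/- chow and 11.80 on WT chow. Bmper and Npy were above the floor on the array labelled LASS2-/- HFD alone (6.72 and 6.83). They entered through the array where the pattern is highest, and their nearness rests on values under the floor. With 4 arrays such nearness describes the pattern and no more.

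Of the other annexins, 4 of 7 entered, and 1 rose and 0 fell with HFD. Anxa1, a mediator that acts on formyl peptide receptors, rose: it read 10.11 on the array labelled LASS2-/- HFD and 9.47 on WT HFD, against 9.39 on the array labelled LASS2-/- chow and 8.94 on WT chow (0.63 ± 0.15 log2, limma adjusted p = 0.0126). For genotype 0 of the 4 passed and 1 had an unadjusted p below 0.05.

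Of the other S100 genes, 7 of 12 entered, and 0 passed limma for diet or genotype, with 2 at an unadjusted p below 0.05 for each. Their median mean diet effect was 0.10 log2. S100a3 and S100a5, dim genes of the same chromosome, had the largest mean diet effects, -1.58 ± 1.40 and -1.97 ± 2.41 log2, with errors of the same order as the effects. Both entered through the array labelled LASS2-/- chow alone, and the effects rest on unfloored values under the floor. Their floored diet ratios were -0.10 and -0.68 log2 under the LASS2-/- label, and 0.02 for each in WT. S100a8 and S100a9, the calgranulins of neutrophils and monocytes, were named after their values were seen. S100a8 had 8.78 on the array labelled LASS2-/- HFD and 7.96 on WT HFD, against 8.32 on the array labelled LASS2-/- chow and 7.48 on WT chow, and its mean genotype effect of 0.83 ± 0.21 log2 did not pass (limma adjusted p = 0.101). S100a9 had 0.60 ± 0.26 log2 (adjusted p = 0.437).

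**Figure D4:**
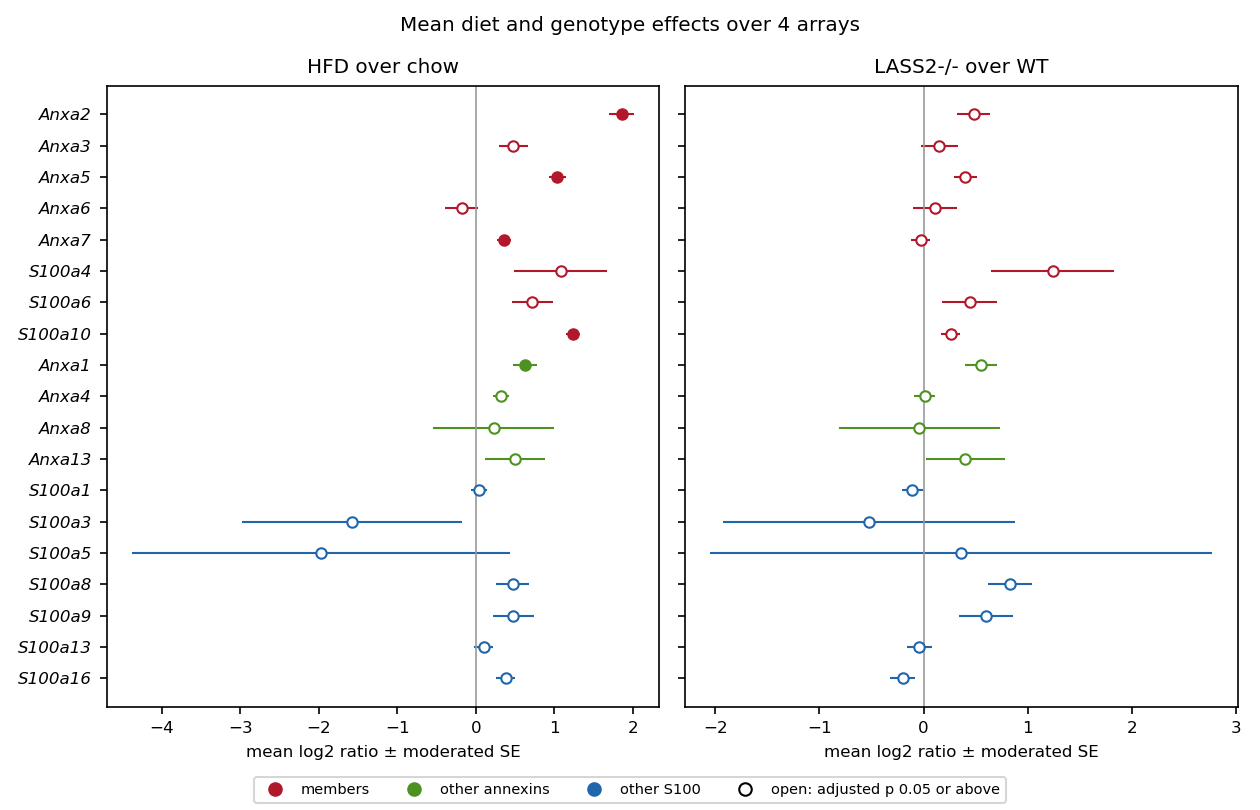
Mean log2 ratio with its moderated SE (horizontal axis) for HFD over chow and for the label LASS2-/- over WT, for the 8 measured genes and for the other annexins and S100 genes that entered (vertical axis); filled points passed limma at an adjusted p below 0.05. Filled points are Anxa2, Anxa5, Anxa7, S100a10 and Anxa1 for diet, and no point is filled for genotype.

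Among binding partners and genes of the plasminogen system, 13 of 15 entered, and 1 rose and 1 fell with HFD, with a median mean diet effect of 0.25 log2. Plgrkt, a plasminogen receptor of the cell surface, rose by 1.31 ± 0.28 log2 (limma adjusted p = 0.00684). Ahnak, the giant scaffold that binds the Anxa2 and S100a10 complex, fell by 0.66 ± 0.18 log2 (adjusted p = 0.0265), which is opposite in direction to both of its partners. None passed for genotype, and 0 had an unadjusted p below 0.05. Of the EF-hand calcium sensors, 8 of 12 entered and 1 rose with HFD: Capn2, the large subunit of a calpain, by 0.55 ± 0.12 log2 (adjusted p = 0.00743).

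Markers of other cells moved with the diet and the label as follows, and their part in the results above was not tested. All 12 macrophage and Kupffer cell markers entered, with summed signals of 34210.0 on the array labelled LASS2-/- HFD and 23480.4 on WT HFD, against 29081.8 on the array labelled LASS2-/- chow and 23778.0 on WT chow. Marco rose by 2.48 ± 0.24 log2 under the LASS2-/- label (limma adjusted p = 0.000391), and Lyz2, lysozyme, rose by 0.64 ± 0.13 under it (adjusted p = 0.037) and by 0.50 ± 0.13 with HFD (adjusted p = 0.0261). Their median mean effects were 0.39 log2 for genotype and 0.11 for diet. For macrophages the sum was thus higher under the LASS2-/- label on both diets, while WT arrays of both diets lay close together.

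All 8 stellate and fibroblast markers entered, with summed signals of 19772.0 on the array labelled LASS2-/- HFD and 21458.5 on WT HFD, against 15728.2 on the array labelled LASS2-/- chow and 16246.7 on WT chow. Col3a1, a fibrillar collagen, rose by 1.44 ± 0.12 log2 with HFD (limma adjusted p = 3.71e-06), Dcn, decorin, rose by 0.27 ± 0.08 (adjusted p = 0.0491), and Des, desmin of stellate cells, fell by 2.28 ± 0.45 (adjusted p = 0.00456). Des entered through the chow arrays alone. It was under the floor on the array labelled LASS2-/- HFD (5.27) and on WT HFD (5.49), so the size of its mean effect rests on unfloored values. The floored diet ratios of Des, which only bound the fall, were -1.6 log2 under the LASS2-/- label and -1.33 in WT. All 6 endothelial markers entered, with summed signals of 8811.2 on the array labelled LASS2-/- HFD and 9520.4 on WT HFD, against 8615.0 on the array labelled LASS2-/- chow and 8242.9 on WT chow, and 1, Cdh5, rose with HFD by 0.75 ± 0.17 log2 (adjusted p = 0.0125). The hepatocyte sum was 202212.0 on the array labelled LASS2-/- HFD and 210429.7 on WT HFD, against 247969.0 on the array labelled LASS2-/- chow and 230040.5 on WT chow. Of the 6 hepatocyte markers Cps1 and Hnf4a fell with HFD, by 0.41 ± 0.07 (adjusted p = 0.00215) and 0.32 ± 0.08 log2 (adjusted p = 0.0239).

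None of the markers of cholangiocytes (3 of 6 entered), lymphocytes (4 of 7), monocytes and neutrophils (3 of 9) or mesothelium (1 of 3) passed for diet or genotype in limma, with an unadjusted p below 0.05 in 3 for diet and 2 for genotype, and 0 of 4 adipocyte markers entered. The cholangiocyte sum was 372.4 on the array labelled LASS2-/- HFD and 245.8 on WT HFD, against 335.4 on the array labelled LASS2-/- chow and 308.9 on WT chow. The monocyte and neutrophil sum was 535.8 on the array labelled LASS2-/- HFD and 275.8 on WT HFD, against 355.5 on the array labelled LASS2-/- chow and 333.0 on WT chow. Both sums were highest on the array labelled LASS2-/- HFD and lowest on WT HFD. The cholangiocyte markers that entered did not peak there. Epcam, above the floor on every array, and Sox9 read 6.60 and 6.93 there, against 6.93 and 7.32 on the array labelled LASS2-/- chow. Krt19 was highest on WT HFD (6.21). Krt7 and Cftr, highest on the array labelled LASS2-/- HFD (5.85 and 4.67), were under the floor on every array. The sums of these lists include markers that did not enter, with values under the floor. Itgam and Mpo, under the floor on every array, read 0.46 and 0.92 on WT HFD against 4.58 and 5.86 on WT chow. Ccr2, above the floor on every array, read 7.18 on WT HFD against 6.34 on WT chow, so the low monocyte and neutrophil sum on WT HFD does not hold for it. The lymphocyte sum was 294.5 on the array labelled LASS2-/- HFD and 372.7 on WT HFD, against 481.5 on the array labelled LASS2-/- chow and 462.3 on WT chow. The mesothelial sum was 67.5 on the array labelled LASS2-/- HFD and 88.8 on WT HFD, against 171.5 on the array labelled LASS2-/- chow and 162.1 on WT chow. These sums were lower on both HFD arrays than on both chow arrays. Msln and Wt1 of the mesothelium were under the floor on every array, and Upk3b was under it on both HFD arrays. Of the lymphocyte markers, Cd3g and Nkg7 were under the floor on both HFD arrays. Cd8a and Ms4a1, above the floor on every array, were higher on HFD in WT (6.86 against 6.41 and 6.77 against 6.35). Under the LASS2-/- label both were lower on HFD (6.60 against 7.32 and 6.44 against 6.63). The adipocyte sum lay between 22.3 and 28.8. None of the markers in these lists was at a signal of 1, the lowest in the table, on any array.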

How the data were processed

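The deposited table holds log2 signals, 1 for each of 45037 probe sets on 4 arrays. They are MAS5 signals, per the submitters' processing notes; the sources used here name neither a version nor a scaling target. Per the labels' protocols, total RNA was labelled with a 3' IVT kit. Trimmed mean signals (2% off each tail, linear scale) were 496.2 for the array labelled LASS2-/- HFD, 496.1 for WT HFD, 496.0 for the array labelled LASS2-/- chow and 496.0 for WT chow, so no further scaling was applied. Of all probe sets 34945 had 1 gene symbol, 932 several and 9160 none; symbols were updated by gene number to a RefSeq table of GRCm38.p6.

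Probe sets under the array median on all 4 arrays were dropped, and each gene was represented by its brightest remaining probe set, which left 12493 genes. limma 3.58.1 in R 4.3.3 fitted diet and genotype (4 arrays, 3 coefficients) with a trend in signal; the variance borrowed from other genes weighed as 12.7 degrees of freedom against 1 of the gene itself. Tested on simulated data, the fit recovered most genes changed by 2-fold or more, but in most repeats it called more unchanged genes than the adjusted p allows, so adjusted p-values may be too small. The simulated variances came from the fit itself, and the changes were given to genes of higher signal alone, alike on both diets. Recovery was thus not shown for dimmer genes such as S100a4 and S100a6, or for genes whose genotype ratio differs between the diets. The fit selects for genes that move alike in both arms, and its SE does not measure the spread between animals. The number of arrays limits the precision. Sums, patterns and figures used Python 3.11.15, pandas 2.3.3 and matplotlib 3.10.9.

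The members and lists were chosen with earlier results of these data known. Named genes were all members, and from each other list those passing limma, at most 4, or where none passed at most 2 with the largest mean ratio. S100a8, S100a9, Alb, Ttr and Apoa1 are exceptions, named after their values were seen. So are the markers named for cholangiocytes, monocytes and neutrophils, lymphocytes and mesothelium. Alternatives were quantile normalization, equal medians, the mean of all probe sets, no _x_at or _s_at probe sets, no filter, no trend, robust moderation, a floor at the 25th percentile and a 1.5-fold mark.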

Additional observations from a re-analysis of the deposited data

Results flagged for a closer look

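Anxa6 had opposite genotype ratios on the diets: -0.35 log2 for the array labelled LASS2-/- over WT on HFD and 0.57 on chow. By the same 4 values its diet ratio was -0.64 log2 under the LASS2-/- label and 0.28 in WT. Anxa7 had a genotype ratio of 0.01 log2 on HFD and -0.08 on chow. Each rests on 1 array a group, and these differences were not tested. The other Anxa6 probe sets gave genotype ratios of 0.01, -0.75 and -0.14 log2 on HFD and of -0.26, -0.17 and 0.13 on chow.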

How the results depend on the processing

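The number of the 8 genes passing limma for diet was 4 as reported, 2 (Anxa5 and S100a10) with the mean of all probe sets and 0 without a trend, where no gene of the array passed for diet and 1783 had an unadjusted p below 0.05 against 2971 with it. With the mean of all probe sets Anxa2 had a mean diet effect of 2.43 log2 with adjusted p = 0.0754. The remaining settings gave 4, and all settings gave 0 for genotype, including the trend-free fit, where 820 genes had an unadjusted p below 0.05 and 0 passed. Over all genes the calls were 114 for genotype, against 23 with quantile normalization, 22 with equal medians, 52 without a filter, 79 with robust moderation and 0 with the mean of all probe sets, and 1412 for diet, against 898 with equal medians and 508 with the mean of all probe sets. With that mean the signs turned for Anxa6 (genotype -0.15, diet 0.39) and Anxa7 (genotype 0.03). Counts of genes 2-fold apart changed as follows. With the floor at the 25th percentile S100a4 made 1 for genotype on HFD and 1 on chow, and the mean of all probe sets gave 1 (Anxa2) for genotype on HFD and 0 for diet in WT. That Anxa2 mean takes in 1437691_at, under the floor on all 4 arrays (5.35 on the array labelled LASS2-/- HFD, 2.32 on WT HFD). The other Anxa2 probe sets gave log2 genotype ratios of 0.84 and 0.81 on HFD. On WT chow 1437691_at and 1437692_x_at were under the floor (4.23 and 2.80), which also bears on the Anxa2 diet ratio in WT. Without _x_at and _s_at probe sets 1 gene was 2-fold higher with diet in WT. The 3 genes 2-fold higher with diet under the LASS2-/- label became 2 in that setting and with the mean of all probe sets, S100a10 being lost in both, and 4 with equal medians, where S100a6 joined. In WT the 2 became 3 with the floor at the 25th percentile (S100a4) and 3 at 1.5-fold (Anxa5). At 1.5-fold, 3 genes were apart by genotype on HFD (Anxa2, S100a4 and S100a6, all higher under the label). By diet 7 were apart under the LASS2-/- label, of which Anxa6 was lower on HFD (-0.64 log2) and the rest higher. The share of all genes at 1.5-fold was not taken. No paired analysis was possible because each group has 1 array and no replicate number is given, and no array could be left out since none would remain in its group. Signals near the array median limit S100a4, and 1 array a group limits every value.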
